A study of Homo sapiens with 41 samples.

Results

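Of 127215 regions formed by merging the ATAC peaks of untreated and inhibitor-treated MDA-MB-231 cells, 632 had a peak in all 3 Nexturastat A lists and in no Ctrl list, and these 632 are the gained regions described here. A list is the set of ATAC peaks the authors deposited for 1 sample, and merging covered chromosomes 1 to 22 and X. They were chosen by the presence of peaks in these 6 lists, so the number and the strength of the gained regions are descriptions without a test. The reverse pattern, a peak in all 3 Ctrl lists and in no Nexturastat A list, was seen in 76 regions. The gained regions made up 0.497% of all merged regions and the reverse pattern 0.0597%.

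MDA-MB-231 is an established human cell line from a triple-negative breast cancer, labelled as epithelial. The Ctrl cells were the parental line without inhibitor, for which the labels name no vehicle, and the Nexturastat A cells were the same line after 5 µM of the compound for 2 days. The shCtrl and shHDAC6 cells were derivatives of the line carrying a control hairpin or a hairpin against HDAC6, with no inhibitor named in their titles, and the labels do not say whether they are clones or pools. Of 41 samples, the 32 with a peak list were used: ATAC in all 4 groups (3 lists each), RNA polymerase II (PolII) ChIP in all 4 groups, Pan-acetyl ChIP in Ctrl and Nexturastat A, HDAC6 ChIP in Ctrl, Nexturastat A and shHDAC6, and HDAC6 CUT&Tag in Ctrl (2 lists each). Each library started from 100000 cells, and the Pan-acetyl antibody was raised against histone H3 acetylated at several lysines, per the labels.

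ATAC-seq marks stretches of DNA that a transposase can reach, which are mostly promoters and distal regulatory elements such as enhancers. HDAC6 is a deacetylase found mainly in the cytoplasm, where alpha-tubulin and the chaperone HSP90 are known substrates, and Nexturastat A is a hydroxamate that inhibits it with selectivity over class I deacetylases. Acetylation of histone H3 and the presence of PolII are marks commonly found at active promoters and enhancers. Of 5 mesenchymal marker genes, 4 (VIM, FN1, SNAI2 and CD44) had a peak within 1 kb of the start in all 3 Ctrl lists. Of 6 luminal markers, 2 did (KRT8 and KRT18) and 1, the estrogen receptor gene ESR1, had one in 0 lists. Of 5 basal markers, EGFR had one in all 3 and the keratin genes KRT14 and KRT17 in 0. Among markers of other cell types, 1 of 4 leukocyte genes (CD3E) and 1 of 4 neuron genes (SYP) had one in all 3 lists, and PTPRC and STMN2 in 0.

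Few gained regions lay over a promoter. The RefSeq table of promoters, 250 bases before to 50 after each gene's start, held 27195 promoters on these chromosomes, and 8 of them overlapped a gained region. That is 8 of 632 gained regions (1.27%), against 8.96% of all merged regions, 3.43% of the 2828 regions with a peak in all 3 Nexturastat A lists and exactly 1 Ctrl list, and 34.8% of the 21786 regions present in all 6 lists. The 8 belong to the protein-coding genes SCN2A, PCDH15, TMC6 and DPF1 and to the noncoding genes LINC01014, LIMCH1-AS1, LOC107986320 and SLC1A3-AS1. Their GC content had a median of 47.8%, with a range from 31.7% to 75.3%, and the median over all promoters in the table was 58.3%. The sequences of 5 of them are printed here because they span both ends of that range and carry the motif matches named afterwards. They are RefSeq sequences of build GRCh38.p14, written 5′ to 3′ along the gene's strand, with capitals for every match to 1 of 12 motifs on either strand.
SCN2A (chr2:165239164-165239463, + strand): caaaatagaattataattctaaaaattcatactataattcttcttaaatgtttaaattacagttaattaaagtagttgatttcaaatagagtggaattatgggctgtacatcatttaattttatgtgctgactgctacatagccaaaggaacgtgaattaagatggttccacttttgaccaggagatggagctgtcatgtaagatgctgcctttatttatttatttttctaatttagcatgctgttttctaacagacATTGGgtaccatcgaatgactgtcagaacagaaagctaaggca
PCDH15 (chr10:54801182-54801481, - strand): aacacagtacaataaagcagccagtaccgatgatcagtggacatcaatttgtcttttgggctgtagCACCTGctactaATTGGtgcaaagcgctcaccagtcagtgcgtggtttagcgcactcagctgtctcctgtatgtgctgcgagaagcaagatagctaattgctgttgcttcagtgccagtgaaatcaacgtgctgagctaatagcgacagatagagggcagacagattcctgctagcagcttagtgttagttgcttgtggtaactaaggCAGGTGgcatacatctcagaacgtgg
SLC1A3-AS1 (chr5:36725139-36725438, - strand): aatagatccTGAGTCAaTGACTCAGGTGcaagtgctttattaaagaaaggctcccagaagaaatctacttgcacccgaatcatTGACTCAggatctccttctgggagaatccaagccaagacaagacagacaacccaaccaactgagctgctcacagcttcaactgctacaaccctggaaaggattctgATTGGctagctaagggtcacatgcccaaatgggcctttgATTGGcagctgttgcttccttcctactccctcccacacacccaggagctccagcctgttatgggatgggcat
TMC6 (chr17:78128706-78129005, - strand): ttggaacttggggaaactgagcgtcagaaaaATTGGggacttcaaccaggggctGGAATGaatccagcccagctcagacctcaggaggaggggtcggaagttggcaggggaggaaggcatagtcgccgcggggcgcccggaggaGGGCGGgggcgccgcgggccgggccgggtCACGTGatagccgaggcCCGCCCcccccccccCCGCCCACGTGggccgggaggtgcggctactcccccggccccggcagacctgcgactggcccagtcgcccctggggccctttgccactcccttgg
DPF1 (chr19:38229646-38229945, - strand): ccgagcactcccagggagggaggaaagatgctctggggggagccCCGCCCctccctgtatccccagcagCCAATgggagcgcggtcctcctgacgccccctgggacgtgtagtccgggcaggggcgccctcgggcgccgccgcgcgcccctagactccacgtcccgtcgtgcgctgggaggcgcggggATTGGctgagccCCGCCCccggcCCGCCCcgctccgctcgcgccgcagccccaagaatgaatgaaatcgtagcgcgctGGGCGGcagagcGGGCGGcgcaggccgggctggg

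The motifs searched were TGANTCA (AP-1), GGAATG (TEAD), TGACGTCA (CREB), CACGTG (E-box), GGGCGG (SP), CCGGAAG (ETS), TGTTTAC (FOX), TGTGGTT (RUNX), AGATAA (for GATA factors), GGGANTTCC (NF-kB), CCAAT (NF-Y) and CAGGTG (ZEB/SNAI), and matches of different motifs could overlap. The CCAAT letters were in 6 of the 8 promoters, and 35.7% of the 27195 promoters held them. GGGCGG was in 2 of the 8, those of TMC6 and DPF1, and in 44.7% of all promoters. TGANTCA was in 1 of the 8, that of the antisense gene SLC1A3-AS1, and in 7.73% of all promoters. CAGGTG was in 2 of the 8, those of PCDH15 and SLC1A3-AS1, and in 20.6% of all promoters. These are matches of letters in 8 windows and no more than a description of them.

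The gained regions were weak peaks. Strength is given in 3 ways: the fold, which is the authors' own value for a peak over its local background; the percentile of that fold among all peaks of the same list; and the pileup, the number of reads stacked at the peak, which was recovered from the deposited fold and p. The median fold of the gained regions was 5.76 in Nexturastat A list 1, 5.26 in list 2 and 4.95 in list 3. Their median pileup was 14 reads in list 1 (range 7 to 67), 8 reads in list 2 (5 to 25) and 7 reads in list 3 (5 to 31). In lists 2 and 3 the lowest pileup that any peak reached was 5 reads, so most gained regions sat close to the lower limit of calling there. A pileup of up to 10 reads was found for 492 of 624 gained regions whose pileup was recovered in list 2, and for 504 of 626 in list 3. The mean percentile over the 3 lists had a median of 37.9 and ran from 0.314 to 78.8. Only 6, 6 and 4 of the 632 reached a percentile of 90 or more in Nexturastat A lists 1, 2 and 3.

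Regions just outside the rule, with all 3 Nexturastat A lists and exactly 1 Ctrl list, numbered 2828. In list 1 their median pileup was 22 reads, above the 14 of the gained regions, while in lists 2 and 3 it was 8 reads in each, against 8 and 7. Of these 2828 regions, 73.1% had their single Ctrl peak in Ctrl list 1, 11.7% in list 2 and 15.2% in list 3. Regions present in all 6 lists had median pileups of 41, 19 and 17 reads. The gained regions were also the narrowest of these classes, with a median width of 662.5 bp, against 747 bp with 1 Ctrl list and 1109 bp in all 6.

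**Figure D1:**
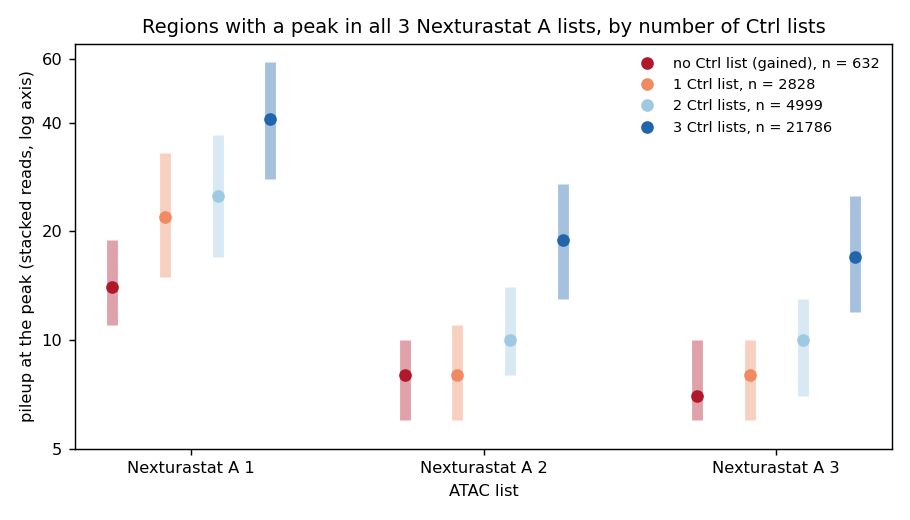
Pileup at the peak (stacked reads, log axis) in each of the 3 Nexturastat A ATAC lists, for regions present in all 3 of them and split by the number of Ctrl lists with a peak; points are medians over regions and bars run from the first to the third quartile. The gained regions, at medians of 14, 8 and 7 reads, lie below the regions of all 6 lists, at 41, 19 and 17, and in lists 2 and 3 overlap those with 1 Ctrl list.

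Depth differed between the groups in the same direction as the count. The local background that the peak caller assigned to most of the genome, a measure of depth, was 1.19, 0.291 and 0.322 reads in Ctrl lists 1 to 3 and 1.31, 0.443 and 0.413 in Nexturastat A lists 1 to 3, which made each Nexturastat A list between 1.1 and 1.52 times its same-numbered Ctrl list. The Ctrl lists held 74018, 42113 and 44453 peaks and the Nexturastat A lists 79666, 62732 and 59710. Ctrl lists 2 and 3 kept 3.92% and 3.90% of the numbers in their peak names, and Nexturastat A lists 2 and 3 kept 21.2% and 21.3%, while both first lists kept 100%; the part of this difference in the count was not tested. With pileup and background of each gained region scaled down to the depth of the same-numbered Ctrl list, 627 still reached that list's lowest −log10 p in pair 1, 377 in pair 2 and 449 in pair 3, and 292 of 632 (46.2%) did so in all 3. Pileups were recovered for 632, 624 and 626 gained regions in Nexturastat A lists 1 to 3, and a region without one counts as not passing in that pair. With every list trimmed to the same number of strongest peaks, 150 regions were gained and 186 showed the reverse. The excess of gained over lost regions thus turned. Within same-numbered pairs, peaks present with the inhibitor alone outnumbered those in Ctrl alone 1.53 to 1 in pair 1, 3.84 to 1 in pair 2 and 2.65 to 1 in pair 3.

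The single lists also set the number of regions. Without Ctrl list 1, the deepest of the Ctrl lists, 2696 regions met the rule, and without Ctrl list 2 or 3 there were 965 or 1065. Without Nexturastat A list 1 the number was 6891, and without list 2 or 3 it was 1251 or 1385. With 1 list fewer the rule is easier to meet, so a rise alone says little. Its size differed by list and was largest without list 1 in each group, and the cause of that was not tested.

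**Figure D2:**
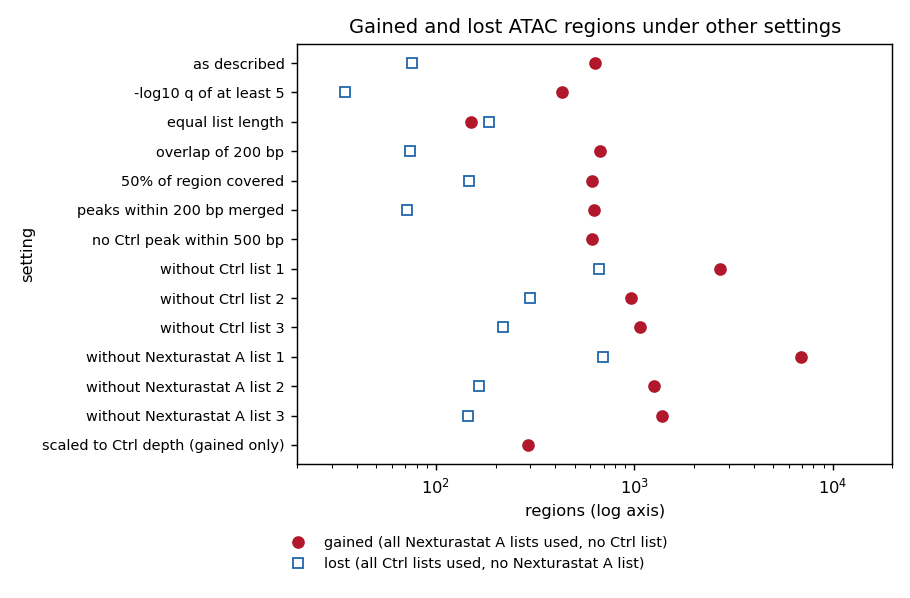
Number of gained regions (filled circles) and of regions with the reverse pattern (open squares) on a log axis under each setting named on the vertical axis. Gained regions outnumber the reverse in each setting that has both counts, other than equal list length, where 150 stand against 186.

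Away from gene starts, the 10 strongest gained regions lay inside genes (2) or between genes (8), and 1 of them, nearest to KIF2A, had another gained region within 50 kb. The highest mean percentile, 78.8, belonged to an intergenic region (chr7:134327661-134328420) 11110 bp from the start of SLC35B4, a nucleotide-sugar transporter gene, with pileups of 22, 17 and 13 reads in the 3 Nexturastat A lists. Hairpin-line cells had peaks there too: all 3 shCtrl lists had one, at 13, 11 and 11 reads, and 1 shHDAC6 list had one at 8 reads. The next (chr7:120733171-120733751, mean percentile 78.3) lay inside KCND2, a voltage-gated potassium channel gene, with pileups of 18, 12 and 12 reads, and had no peak in any of the 6 hairpin-line lists. An intergenic region nearest to ARPP21 (chr3:35923978-35924595) followed at 77.0, with 27, 12 and 8 reads, and 1 shCtrl and 1 shHDAC6 list had a peak there.

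The region nearest to LRRC30 (chr18:7221440-7222022, mean percentile 75.3) had 33, 7 and 13 reads in the Nexturastat A lists, and peaks in 2 shCtrl and 3 shHDAC6 lists. The one nearest to RPL22L1 (chr3:170815409-170816149), a ribosomal protein paralog gene, had 30, 24 and 14 reads at a mean percentile of 75.1, and peaks in 2 shCtrl lists and in 0 shHDAC6 lists. EFNA5, which encodes ephrin-A5, a membrane-anchored ligand of Eph receptors, was the nearest gene of 2 strong regions. The first (chr5:106258484-106259180) had 25, 8 and 12 reads and the second (chr5:107337218-107337971) 13, 20 and 13 reads. They are not close to the gene, at 1412105 and 333342 bp from its start, and neither had a peak in a hairpin-line list.

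The other 3 of the 10 strongest distal regions were nearest to SYNCRIP (chr6:85922935-85923511), an RNA-binding protein gene, to KIF2A (chr5:61866779-61867381), a microtubule-depolymerising kinesin gene, and to PPP3CA (chr4:101171715-101172259), which encodes a catalytic subunit of calcineurin and hosts the region in its body. Their pileups were 20, 15 and 8 reads, 16, 11 and 14 reads, and 18, 15 and 14 reads. All 10 still reached the Ctrl lists' lowest −log10 p in all 3 pairs after depth scaling. Of the 10, 5 had no peak in any hairpin-line ATAC list, and 2 had a PolII or Pan-acetyl peak in at least 1 Ctrl or Nexturastat A list, those nearest to RPL22L1 and KIF2A.

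At gene starts there were 11 gained regions, 1.74% of the 632 (95% Wilson interval 0.975% to 3.09%, which covers counting error only), where a region counts if it lies within 1 kb of the start of a protein-coding gene. For the 4158 of 19970 protein-coding genes without a known start, both ends were taken as starts, so some of these regions may lie at the other end of a gene. The same share was 11.3% over all merged regions and 4.21% over regions with 1 Ctrl list. By mean percentile the strongest was at the start of CYP4F12 (chr19:15672413-15673749), a cytochrome P450 gene, with pileups of 11, 14 and 12 reads and a mean percentile of 53.8. It had peaks in 2 shCtrl and 3 shHDAC6 lists. At PCDH15 (chr10:54800991-54801452), which encodes a protocadherin of hair-cell tip links, the pileups were 10, 10 and 8 reads. At DPF1 (chr19:38229601-38230229), a gene for a subunit of neuronal BAF remodelling complexes, they were 19, 11 and 18 reads, in a GC-rich promoter whose sequence is printed above.

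At SCN2A (chr2:165239067-165239916), a neuronal voltage-gated sodium channel gene with an AT-rich promoter, the pileups were 11, 5 and 5 reads, and no hairpin-line list had a peak. At TMC6 (chr17:78128294-78129523), a gene of the transmembrane channel-like family, they were 25, 12 and 12 reads over high local backgrounds of 4.08, 2.18 and 2.00 reads, and all 4 PolII lists of Ctrl and Nexturastat A had a peak there. The nearest Ctrl ATAC peak to the TMC6 region was 194 bp away. The remaining gene-start regions were at TECTB, NCALD, PSG7, ANKRD9, LPAR1 and TSPAN7, with mean percentiles from 11.1 at TSPAN7 to 30.9 at TECTB. Of the 11, those at CYP4F12 and PCDH15 passed after depth scaling and 9 did not.

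Most gained regions were far from promoters. By the distance of their centre to the nearest gene start, 331 (52.4%) lay between 10 and 100 kb and 197 (31.2%) between 100 kb and 1 Mb, with a median of 51.2 kb. The median was 45.0 kb for regions with 1 Ctrl list and 9.51 kb for regions in all 6 lists. Apart from gene starts, 256 gained regions (40.5%) were inside a protein-coding gene and 365 (57.8%) were intergenic, against 40.9% and 47.8% of all merged regions.

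**Figure D3:**
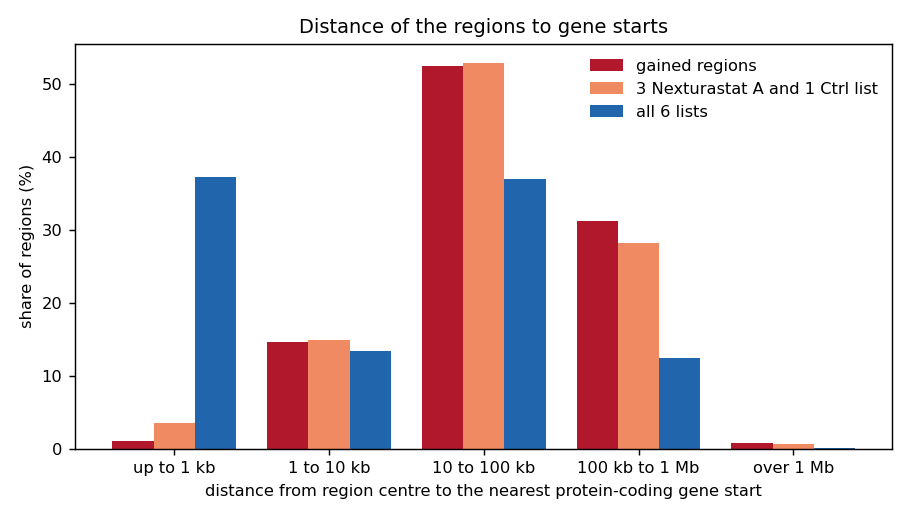
Share of regions (%) by distance from the region centre to the nearest protein-coding gene start, for the 632 gained regions, the 2828 regions with all 3 Nexturastat A lists and 1 Ctrl list, and the 21786 regions of all 6 lists. Gained regions and those with 1 Ctrl list have nearly the same profile, with 52.4% and 52.8% between 10 and 100 kb, while 37.2% of the regions in all 6 lists lie within 1 kb.

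The gained regions were scattered rather than clustered. Only 22 of them lay within 50 kb of another, as 11 pairs, and no run held more than 2. Of the 1264 merged regions directly next to a gained one, 6 were gained themselves (0.475%), close to the 0.497% of all regions. The chromosomes held between 5 (chromosome 22) and 69 (chromosome 1) of them, which was 0.253% of the regions of chromosome 15 at the lowest and 0.71% of those of chromosome 12 at the highest. Of 602 nearest genes, 573 were nearest to 1 gained region, 28 to 2, and TMEM51 to 3. None of the 1558 miRNA hairpins in the RefSeq table overlapped a gained region, and 181 overlapped some merged region. Gained regions are 0.497% of all merged regions, so 0 of those 181 hairpins is near that share.

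The pair of highest mean percentile lay 33.4 kb apart near XCL1, the gene of the chemokine lymphotactin. Its first region (chr1:168603343-168604012) had 21, 10 and 8 reads and its second (chr1:168637380-168637958) 18, 13 and 12 reads, and each had a peak in 2 shCtrl lists and 1 shHDAC6 list. A second pair lay near IGFBP5, which encodes an insulin-like growth factor binding protein, with 19, 12 and 23 reads at chr2:216666395-216667083 and 15, 16 and 13 reads at chr2:216698828-216699195. Other pairs were near SLC25A33, in PDE4B (a cAMP phosphodiesterase gene), in HIPK2 (a stress-responsive kinase gene) and between ZSWIM6 and KIF2A. The closest pair lay inside MMP16, a membrane-type metalloproteinase gene, where 1749 bp separated both regions.

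A Ctrl peak lay near some gained regions even though none touched them. The distances that follow were not measured for other merged regions, so nothing particular to the gained regions is read from them. The distance to the nearest peak of any Ctrl list had a median of 10.5 kb and a minimum of 41 bp, and 302 of 632 gained regions had one within 10 kb, 35 within 1 kb and 22 within 500 bp.

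Among 22 gene lists for breast epithelial identity, signalling, stress, chromatin and other cell types, 29 of 505 listed genes that were nearest to any merged region were nearest to a gained one (5.74%). Over all 18189 protein-coding genes nearest to a merged region, 602 were nearest to a gained one (3.31%). Regions with 1 Ctrl list were nearest to 2329 of the 18189 (12.8%). A nearest gene is a matter of position only, since no expression data were used. The lists with most genes were neuron markers, nuclear receptors and retinoid genes, and receptor kinases and their ligands, with 4 each, of 24, 25 and 31 genes. Their shares were 16.7%, 16.0% and 12.9%. For regions with 1 Ctrl list the shares of the same lists were 12.5%, 28.0% and 51.6%, so 2 of the 3 lists also stood above the share of all genes there. In 7 lists no gene was nearest to a gained region: CTCF and cohesin, TGF-beta and BMP, YAP/TEAD factors and targets, basal breast, cell cycle, luminal and epithelial, and tubulin, cilium and microtubule. These lists held only 14 to 28 genes nearest to any merged region, so a count of 0 is near the 3.31% share of all genes. The gained region inside TGFBR2, named below, is nearest to the start of another gene and so is not counted for TGFBR2.

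The genes of receptor kinases and ligands nearest to a gained region were AREG, which encodes the EGFR ligand amphiregulin, VEGFC, a lymphatic growth factor gene, and the receptor genes IGF1R and PDGFRA. Nearest did not mean close for 3 of them, where the region lay 163586 bp (AREG), 171499 bp (VEGFC) and 194088 bp (PDGFRA) from the gene's start. The AREG region (chr4:74608250-74609194) had 17, 12 and 7 reads and a mean percentile of 63.5, the highest of the 4. The IGF1R region (chr15:98659049-98659567) lay inside the gene, 10769 bp from its start, with 17, 7 and 7 reads, and had peaks in 2 shCtrl lists and in 0 shHDAC6 lists. The list of nuclear receptors and retinoid genes gave the nuclear receptor genes THRB, for the thyroid hormone receptor beta, and NR2F1, then CYP26A1, a retinoic acid hydroxylase gene, and AHR, a ligand-activated transcription factor of the bHLH-PAS family and not a nuclear receptor. Their mean percentiles ran from 26.4 at NR2F1 to 38.5 at AHR, and the regions lay 6894 bp from the start of CYP26A1, 118139 bp from that of THRB, 260900 bp from that of AHR and 345987 bp from that of NR2F1.

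The neuronal genes were NRXN3, SYT1, GRIA2 and SCN2A, 2 of them at more than 390 kb from the start: 789526 bp for NRXN3 and 393964 bp for SYT1. Mesenchymal genes were CDH11, CDH2 and TWIST1, of which CDH2 encodes N-cadherin and TWIST1 a transcription factor of epithelial-mesenchymal transition. The regions lay 252096 bp from the start of CDH11, 784752 bp from that of CDH2 and 33718 bp from an end of TWIST1. The TWIST1 region (chr7:19078980-19079678) had 11, 5 and 5 reads and did not pass after depth scaling. Genes of the hypoxia list were SLC2A1, the glucose transporter GLUT1 gene, at a mean percentile of 64.7 with 24, 14 and 6 reads, and HIF1A at 35.5 with 11, 7 and 7 reads, at 89974 and 70028 bp from the gene starts.

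The AP-1 list gave EMP1 and ATF3, and the NF-kB list NFKBIZ and NFKB1, all with no peak in a hairpin-line list. Single genes came from the lists of Wnt (TCF7L1), lipid synthesis (SREBF1), autophagy (SQSTM1), acetylation readers and writers (NCOA2), chaperones (BAG3), interferon and antigen presentation (PSMB9), leukocyte markers (PTPRC) and p53 (ZMAT3). The BAG3 region (chr10:119675155-119675797), inside the gene of this HSP70 co-chaperone, had 27, 8 and 11 reads. The NCOA2 region (chr8:70273185-70274097), inside a nuclear receptor coactivator gene, had 10, 6 and 6 reads, and neither passed after depth scaling.

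The hairpin-line ATAC lists were not used to choose the regions, and they show how often these sites had a peak in lines for which no inhibitor is named. A peak was present in at least 1 of the 6 hairpin-line lists for 245 gained regions (38.8%), against 32.9% of all merged regions and 35.4% of regions with 1 Ctrl list. At least 1 shCtrl list had a peak at 205 of the gained regions (32.4%, against 29.4% of all and 30.8% with 1 Ctrl list). At least 1 shHDAC6 list had one at 181 (28.6%, against 27.0% and 28.1%). Both hairpin groups had a peak at 141, shCtrl alone at 64 and shHDAC6 alone at 40. Over all merged regions, too, shCtrl peaks were the more frequent (29.4% against 27.0%), so no lean particular to the gained regions is read from these counts. All 6 lists had one at 12 gained regions (1.9%), a share below the 12.0% of all merged regions and the 4.6% of regions with 1 Ctrl list. The depth of these lists, at a background of 0.448 to 0.601 reads, lay above that of Ctrl lists 2 and 3 and below that of list 1.

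By list, the share of gained regions with a peak was 20.3%, 20.4% and 14.7% in the shCtrl lists and 20.9%, 12.7% and 15.2% in the shHDAC6 lists. The groups overlapped, with the highest and the lowest value both in shHDAC6. The means were 18.5% ± 3.24 (SD, n = 3) in shCtrl and 16.2% ± 4.21 (SD, n = 3) in shHDAC6, a difference of -2.22 percentage points (exact permutation test over lists, two-sided, p = 0.70, adjusted p = 1.0 over 10 tests, smallest possible p 0.10). The difference moved with single lists: it was -0.422 without shHDAC6 list 2, -4.54 without shHDAC6 list 1 and -4.09 without shCtrl list 3. Relative to the other merged regions of the same list, the log2 ratio was -0.26 in shCtrl and -0.34 in shHDAC6, a difference of -0.08 (exact permutation p = 0.70, adjusted p = 1.0, n = 3 lists each). Whether replicates came from separate cultures is not given in the labels, so these p-values measure the spread between these lists, which may be technical.

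Regions with 1 Ctrl list had peaks in 20.6%, 22.2% and 17.6% of cases in the shCtrl lists and 21.2%, 13.9% and 17.6% in the shHDAC6 lists, so in the hairpin lines the share was slightly above that of the gained regions in each list. The share with a peak in at least 1 of the 6 lists went the other way, at 35.4% against 38.8% of the gained regions. Where a gained region had a hairpin-line peak, its median pileup was 7 to 8 reads in each of the 6 lists, the same size as in Nexturastat A lists 2 and 3.

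The knockdown pattern, a peak in all 3 shHDAC6 and in no shCtrl list, was seen at 3 gained regions (0.475%), against 0.125% of all merged regions, and its reverse also at 3 (0.475%), against 0.347%. The first was nearest to RAB33A (chrX:130192136-130193022), a small GTPase gene, with 13, 13 and 12 reads in the Nexturastat A lists and 11, 10 and 9 reads in the shHDAC6 lists. The second was nearest to TRIM29 (chr11:120172085-120172795), a tripartite-motif protein gene, with 24, 10 and 9 reads after the inhibitor and 12, 16 and 10 reads in shHDAC6. The third was 784752 bp from CDH2 (chr18:28961529-28962236), with 9, 7 and 6 reads after the inhibitor and 7, 9 and 7 reads in shHDAC6. These 3 regions also passed after depth scaling.

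In the reverse direction, a region inside TGFBR2 (chr3:30693394-30693882), the gene of the type II TGF-beta receptor, had 24, 8 and 8 reads with the inhibitor, and the other 2 were nearest to OR6B3 (chr2:240060332-240061576, 7433 bp from its start) and TMIGD1 (chr17:30336430-30336977, 2646 bp). Among the 12 regions with a peak in all 6 hairpin-line lists, the strongest was nearest to DDI1 (chr11:103659340-103659898), with 25, 9 and 8 reads in the Nexturastat A lists, 6, 15 and 8 in shCtrl and 9, 6 and 5 in shHDAC6. Another of them lay inside AKT1 (chr14:104794006-104794609), a kinase gene, 1440 bp from its start, with 16, 12 and 10 reads.

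PolII was absent from most gained regions. The PolII antibody recognises the C-terminal domain of the largest subunit, Rpb1. No Ctrl or Nexturastat A PolII list had a peak at 574 of the 632 (90.8%), against 74.5% of all merged regions and 84.5% of those with 1 Ctrl list. The share with a peak was 2.53% and 6.49% in the Ctrl lists and 4.43% and 3.80% in the Nexturastat A lists, so that both inhibitor values lay between the Ctrl values. The means were 4.51% ± 2.80 (SD, n = 2) and 4.11% ± 0.448 (SD, n = 2), a difference of -0.396 percentage points (exact permutation p = 1.0, adjusted p = 1.0; with 2 lists against 2 no p below 0.333 is possible). Without Ctrl list 2 the difference was 1.58, the opposite sign.

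No gained region had a PolII peak in both Nexturastat A lists and in no Ctrl list (0 of 632, which allows a share of up to 0.475%, against 0.198% of all merged regions), and the reverse was also seen at 0 (against 0.0448%). Both Nexturastat A PolII lists covered 11 gained regions (1.74%, against 11.7% of all merged regions), and each of the 11 also had a peak in at least 1 Ctrl PolII list. They were nearest to PITRM1, EPS8L2, PRDM11, MYRF, GPC5, AKT1, CORO6, TMC6, SQSTM1, LFNG and TSPAN7. In the hairpin lines the share was 2.37% in each shCtrl list and 2.22% in each shHDAC6 list, which is 15 against 14 regions (exact permutation p = 0.333, adjusted p = 1.0, n = 2 lists each). Both shHDAC6 and no shCtrl list covered 1 gained region, at NCALD (0.158%, against 0.408% of all merged regions), and the reverse was found at 1, nearest to PRKG1 (0.158%, against 0.557%).

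Acetylated histone H3 was likewise rare at the gained regions. No Pan-acetyl peak in any Ctrl or Nexturastat A list was found at 570 (90.2%), against 78.0% of all merged regions. The share with a peak was 0.158% and 3.48% in the Ctrl lists and 3.32% and 3.96% in the Nexturastat A lists. Ctrl list 1 stood apart from the other 3, and it was also the shortest, with 1418 peaks against 28473 to 61186. The means were 1.82% ± 2.35 and 3.64% ± 0.448 (SD, n = 2 each), a difference of 1.82 percentage points (exact permutation p = 0.667, adjusted p = 1.0). At equal list length the difference was 0, without Ctrl list 1 it was 0.158 and without Ctrl list 2 it was 3.48.

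Gain of acetylation, a peak in both Nexturastat A and in neither Ctrl Pan-acetyl list, was found at 0 of 632 gained regions, which allows a share of up to 0.475%, although 3.84% of all merged regions and 1.06% of those with 1 Ctrl list had that pattern. Both Nexturastat A lists covered 3 gained regions (0.475%, against 6.11% of all merged regions), nearest to GPC5, SQSTM1 and LPAR1, and each of these had a peak in a Ctrl Pan-acetyl list as well. Relative to the other merged regions of the same list, the log2 ratio of the share was -1.32 in Ctrl and -1.80 in Nexturastat A, a difference of -0.47 (exact permutation p = 0.667, adjusted p = 1.0, n = 2 lists each). It was -0.96 with a pseudocount of 1 percent in place of 0.1 percent, -1.22 without Ctrl list 1 and 0.28 without Ctrl list 2.

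HDAC6 itself was found at few gained regions. In Ctrl and in Nexturastat A, the first HDAC6 ChIP list used an antibody from CST and the second one from Novus. Both shHDAC6 lists used the one from Novus. The share with a peak was 3.32% and 1.58% in the Ctrl ChIP lists and 0.158% and 0% in the Nexturastat A lists, a difference of -2.37 percentage points (exact permutation p = 0.333, adjusted p = 1.0, n = 2 lists each). The Nexturastat A lists were short, with 3256 and 235 peaks against 28590 and 63833, and at equal list length the difference was 0. Relative to the other merged regions the log2 ratio differed by 0.38, but Nexturastat A list 2 covered 0 gained regions and 0.0387% of the other regions, both below the pseudocount of 0.1 percent, so its ratio is set by that pseudocount. The value was 1.0 with a pseudocount of 1 percent and -0.62 without that list, so no direction is read from it. In the CUT&Tag lists of Ctrl cells the share was 0.949% and 3.16%, and in the 2 shHDAC6 ChIP lists it was 1.11% and 0.633%.

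Both Ctrl ChIP lists had a peak at 3 gained regions (0.475%, against 2.61% of all merged regions), none of which had one in a Nexturastat A list (2.4% of all merged regions had that pattern), and both CUT&Tag lists at 4 (0.633%, against 7.11%). The 6 regions of either kind were nearest to PRSS58, OLFM2, GOLGA8T, GPC5, LFNG and SQSTM1, of which GOLGA8T belongs to a family of near-identical golgin copies where reads can be shared. HDAC6 in both ChIP lists was found at 3 of these regions. One (chr13:91348365-91349472) was intergenic, 49702 bp from the start of GPC5, a glypican gene. The others lay inside LFNG (chr7:2519515-2519962), which encodes a glycosyltransferase that modifies Notch, and inside SQSTM1.

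The region inside SQSTM1 (chr5:179820335-179821330), the gene of the autophagy receptor p62, was the only gained region that all 4 Ctrl lists of HDAC6 covered, ChIP and CUT&Tag alike (0.158%, against 1.26% of all merged regions). It had pileups of 45, 19 and 20 reads after the inhibitor over local backgrounds of 15.1, 6.26 and 5.00 reads, and with folds of 2.86, 2.75 and 3.5 it had the lowest mean percentile of all 632, 0.314. PolII peaks in Ctrl had folds of 7.69 and 9.49 there, and in Nexturastat A 9.26 and 10.1. The nearest Ctrl ATAC peak was 117 bp away, 2 shCtrl and 3 shHDAC6 lists had a peak of 23 to 29 reads at the site, and it did not pass after depth scaling.

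With the assays together, 507 of the 632 gained regions (80.2%) had no PolII, Pan-acetyl or HDAC6 peak in any Ctrl or Nexturastat A list, against 62.0% of all merged regions and 68.4% of regions with 1 Ctrl list. In 25 of the 26 lists not used to choose them, a smaller share of gained regions than of the other merged regions had a peak, the exception being shHDAC6 HDAC6 ChIP list 1 at 1.11% against 0.941%. In 24 of the 26 the share was also below that of regions with 1 Ctrl list, and in all 26 below that of regions present in all 6 lists.

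**Figure D4:**
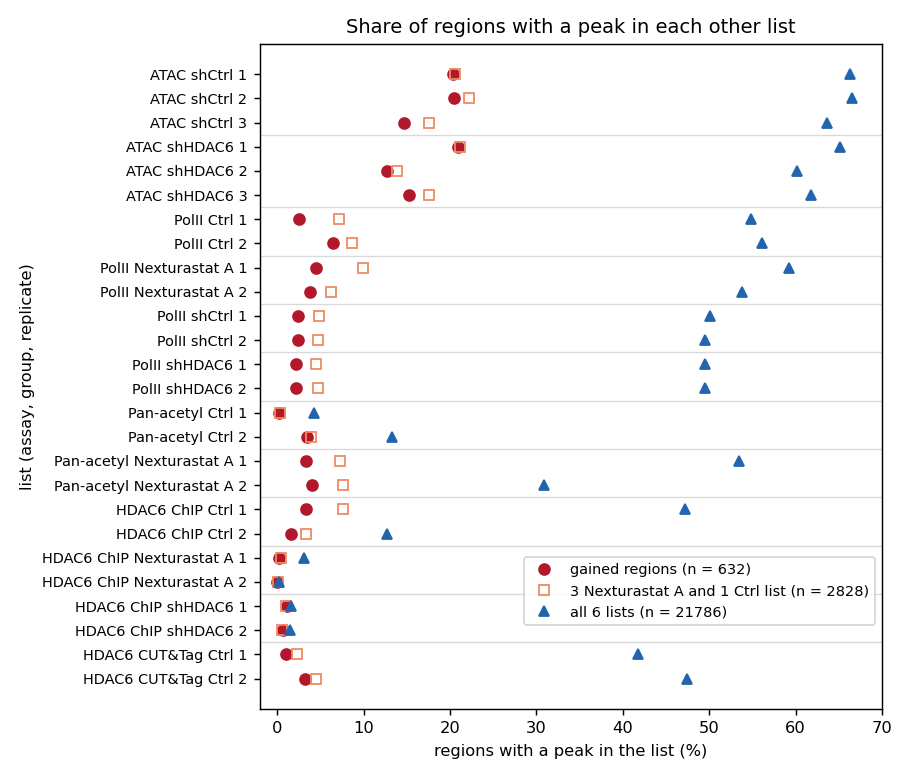
Share of regions (%) with a peak in each of the 26 lists that were not used to choose the gained regions, by assay, group and replicate, for the 632 gained regions, the 2828 regions with all 3 Nexturastat A lists and 1 Ctrl list, and the 21786 regions of all 6 lists. In the hairpin-line ATAC lists the gained regions stand at 12.7% to 20.9% and the regions with 1 Ctrl list at 13.9% to 22.2%, and in every list the gained regions lie below the regions of all 6.

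Strength within the gained regions went with some of these measures and not with others. When the 632 were split into 4 groups of 158 by mean percentile, the share that passed after depth scaling, which depends on the same pileups, was 12.0%, 35.4%, 55.1% and 82.3% from the weakest to the strongest group. A peak in at least 1 hairpin-line ATAC list was found at 38.0%, 34.8%, 38.6% and 43.7%. PolII peaks in Ctrl or Nexturastat A went the other way, at 15.2%, 11.4%, 5.06% and 5.06%, and the weakest group also had the highest share of Pan-acetyl peaks, at 13.9% against 7.59% to 10.1% in the other groups. The weakest group includes the SQSTM1, LFNG, AKT1 and TMC6 regions, which lay in PolII-covered gene bodies or promoters with high local background. Fold falls as local background rises, so this order depends on background as well as on pileup. The split was not repeated by pileup or by p. Among the 292 regions that passed after depth scaling, 42.1% had a hairpin-line peak, and among the 340 that did not, 35.9%.

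**Figure D5:**
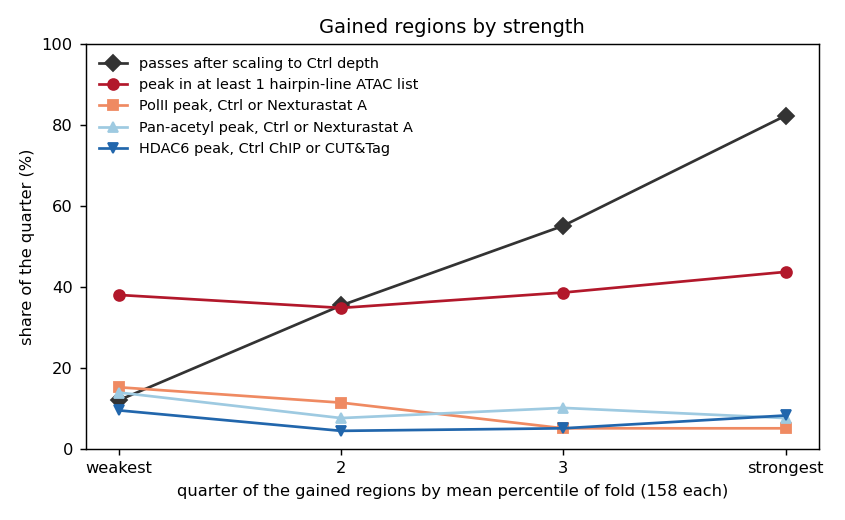
Share (%) of each of 4 groups of the gained regions, ordered by mean percentile of fold over the 3 Nexturastat A lists with 158 regions in each group, that passed after depth scaling or had a peak in other lists. The depth line rises from 12.0% to 82.3%, the hairpin-line ATAC share stays between 34.8% and 43.7%, and the PolII share falls from 15.2% to 5.06%.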

How the data were processed

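ATAC, ChIP and CUT&Tag peak lists of 32 of 41 samples were used, and the other 9 samples were not analysed here. Groups came from the sample labels. Each list is 1 sample's peaks, as deposited, without a header. The authors' fold is a linear ratio over local background, each peak carries the authors' −log10 p and −log10 q, and the deposited score is a whole number made from one of these. They are values of a peak within its own list and served for ranking and filtering there. Tools named in the submitters' processing notes, with no role stated, are MACS2 2.2.7.1, Bowtie2 2.4.4, Trim Galore 0.6.7, SAMtools 1.13, ChIPseeker 1.28.2 and deepTools 3.5.1, and the build is hg38.

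The members, gene lists and comparisons were chosen with earlier results of these data known. Repeated lines of an interval were reduced to the one of highest −log10 p, chromosomes 1 to 22 and X were kept, and overlapping peaks of the 6 parental ATAC lists were merged. A list held a region if a peak overlapped it by at least 1 bp. Pileup and background were recovered from fold = (pileup + 1)/(background + 1) and the Poisson p, for 99.6% to 100% of ATAC peaks. A region without recovery in a list is left out of that list's pileup values and counts as not passing after depth scaling. Depth is known only through this background, since read totals were not used here. Depth scaling, chosen after seeing the data, multiplied pileup and background by the ratio of genome backgrounds in a pair and asked whether the Poisson −log10 p reached the Ctrl list's lowest. Gene positions came from a RefSeq table of GRCh38.p14, with the start known for 15812 of 19970 protein-coding genes and both ends used for 4158. For these 4158, a distance given to a gene start can be one to the other end of the gene. Shares of regions per list were compared by exact two-sided permutation over lists and adjusted by Benjamini-Hochberg over 10 tests; log2 ratios used a pseudocount of 0.1 percent. The code was tested on simulated lists.

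Regions named are the 10 strongest at and away from gene starts by mean percentile, those with the gained pattern in another assay, those with HDAC6 in both lists of a Ctrl assay, 6 of the 11 tied pairs by percentile, and up to 4 per gene list; the reverse pattern, regions in all 6 hairpin-line lists and those with PolII in both inhibitor lists were added after their values were seen. Same-numbered Ctrl and Nexturastat A ATAC lists deviated together (correlation of deviations from the group means over regions 0.539, 0.246 and 0.25), each above the 0.1 set for pairing, so these numbers were taken as pairs, although the highest correlations with a differently numbered list were -0.354, 0.236 and 0.26, so that only list 1 stood apart from them; the hairpin-line lists did not (0.0112, -0.0231 and 0.000575). Lists 1 of the parental ATAC groups reach down to a −log10 p of 3.95 and 3.92, the others to 5. Analysis used Python with numpy, pandas and scipy. A search of the regions themselves for motifs was not run, because no genome sequence was used here.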

Additional observations from a re-analysis of the deposited data

How the results depend on the processing

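The number of gained regions was 150 at equal list length and 292 after depth scaling, and without 1 list at a time it ran from 965 to 6891. Under the other 6 settings it stayed within 1.5 times of 632, between 430 and 670. Of these 6, the replicate block gives 632 by construction. Of the gained regions, 0.949% lay at gene starts with a window of 500 bp, 5.85% with 3 kb and 7.59% with all genes counted, and 6 or 44 lay within 20 or 100 kb of another. The cause of these and the following shifts was not tested.

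For PolII, Nexturastat A minus Ctrl turned to 0.237 with peaks within 1 kb and ran from -2.37 to 1.58 without 1 list at a time. Relative to other regions it turned to 0.0278 at a −log10 q of at least 5, to 0.135 within 1 kb and to 0.0138 against regions with 1 Ctrl list, with a range of -0.542 to 0.459 without 1 list. PolII after knockdown turned to 0.0791 at a −log10 q of at least 5. In hairpin-line ATAC the relative difference turned to 0.0114 against regions with 1 Ctrl list and ran from -0.204 to 0.0202 without 1 list, the highest without shHDAC6 list 2. The hairpin-line ATAC difference in percentage points ran from -4.54 to -0.422 without 1 list, and was -0.211 at equal list length, -0.738 at a −log10 q of at least 5 and -5.19 with members chosen at that threshold. The difference for Pan-acetyl was 0 at equal list length and 0.316 at a −log10 q of at least 5, was 4.3 with members chosen at that threshold, and ran from 0.158 (without Ctrl list 1) to 3.48 (without Ctrl list 2). Its relative value ran from -1.22 to 0.275 and was -0.956 with a pseudocount of 1 percent. For HDAC6 ChIP the difference was 0 at a −log10 q of at least 5 and at equal list length, -8.14 with members chosen at that threshold, and ran from -3.24 to -1.5. Its relative value was 1.0 with a pseudocount of 1 percent, turned to -0.363 within 1 kb and to -0.858 with members chosen at a −log10 q of at least 5, and ran from -0.623 to 1.38.

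With same-numbered lists as a replicate block, the gained regions were the same 632 by construction. Sign-flip permutation over pairs leaves each difference as it was by construction. The differences were -2.22 for hairpin-line ATAC (exact sign-flip p = 1.0), -0.396 for PolII with the inhibitor (1.0) and -0.158 for PolII after knockdown (0.50). They were 1.82 for Pan-acetyl (0.50) and -2.37 for HDAC6 ChIP (0.50). The smallest p that sign flips can give is 0.25 with 3 pairs and 0.5 with 2, so no call could change. For PolII with the inhibitor the deviations of same-numbered lists correlated at 0.548, and for HDAC6 ChIP, where the number marks the antibody, at 0.202.

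Low depth limits these results: a peak in Nexturastat A lists 2 and 3 needs as few as 5 stacked reads, so absence from a Ctrl list means that no peak was called at that depth, not that the site was closed. The smallest p that permutation of lists can give is 0.10 with 3 lists against 3 and 0.333 with 2 against 2, so no such test can pass 0.05.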
